A study of Mus musculus with 4 samples.

Results

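Transcripts of platelets and neutrophils, blood cells that a dissected brain region can carry in its vessels, were examined in hypothalamus of mice bearing a colon tumour. The genes were 10 of the 19938 genes with a probe set of their own, of which 4 mark platelets (Ppbp, Pf4, Itga2b and Gp9) and 6 mark neutrophils (S100a8, S100a9, Ngp, Camp, Ltf and Mpo). They were listed by symbol, each was represented by 1 probe set naming no other gene, and the set was selected on knowledge of how these same tumour-bearing arrays differed from control. Those differences are therefore given as a description, with no test. Hypothalamic RNA of male CDF1 mice (BALB/c x DBA/2) aged 10 to 11 weeks was hybridised to 4 arrays, 1 for each group. The control array held pooled RNA of 4 mice given a sham injection of 0.2 ml of salt solution, and the tumour arrays held pooled RNA of 4 mice given 500000 C26 cells (0.5M), pooled RNA of 3 mice given 1000000 (1M) and RNA of 1 mouse given 2000000 (2M). C26 is a mouse colon adenocarcinoma line that causes weight loss, and it was placed under the skin of the flank 20 days before the mice were killed. Where values follow each other below, the order is control, 0.5M, 1M and 2M, or 0.5M, 1M and 2M for differences from control. No group had a second array, so no difference between 2 arrays has a replicate check.

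Platelets are cell fragments shed by megakaryocytes. They have no nucleus, carry megakaryocyte RNA, store chemokines in alpha granules and bind vessel walls through surface receptors. Neutrophils are short-lived white cells of bone marrow origin. They fill their granules during maturation, so that Mpo, Ltf, Camp and Ngp are transcribed mainly in marrow precursors, whereas S100a8 and S100a9 remain abundant in circulating cells. In brain, both cell types normally lie inside vessels, and Pf4 is also known from macrophages at the borders of the brain. The protocols given do not say whether blood was flushed from the brains before dissection. In bulk RNA, fewer cells of a type and less RNA per cell cannot be told apart.

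Ppbp and Pf4 lie side by side in the mouse genome, as do S100a8 and S100a9. The promoters of these 4 genes are shown because Ppbp and Pf4 differed in their values despite being neighbours, and the S100 pair is given beside them. Each is the 150 bases before the RefSeq start (build GRCm38.p6), read 5′ to 3′ on the gene's strand. For Ppbp (chr5:90768368-90768517, plus strand) and Pf4 (chr5:90772285-90772434, plus strand), capitals mark GGAA, the core bound by ETS factors, GATAA and GATAG, cores bound by GATA factors, and TATAAA. For S100a8 (chr3:90668921-90669070, plus strand) and S100a9 (chr3:90695722-90695871, minus strand), capitals mark TTNNGNAA, the spaced form bound by C/EBP factors, and TATAAA. Motifs were searched on both strands.
Ppbp: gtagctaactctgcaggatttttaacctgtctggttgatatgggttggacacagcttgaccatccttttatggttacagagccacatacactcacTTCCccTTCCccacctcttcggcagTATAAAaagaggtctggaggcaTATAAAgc
Pf4: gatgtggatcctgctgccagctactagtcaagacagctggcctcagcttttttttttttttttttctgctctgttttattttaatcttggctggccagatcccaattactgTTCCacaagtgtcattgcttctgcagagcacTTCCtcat
S100a8: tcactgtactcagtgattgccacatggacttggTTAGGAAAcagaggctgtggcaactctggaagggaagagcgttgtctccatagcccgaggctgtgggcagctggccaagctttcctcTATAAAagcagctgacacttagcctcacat
S100a9: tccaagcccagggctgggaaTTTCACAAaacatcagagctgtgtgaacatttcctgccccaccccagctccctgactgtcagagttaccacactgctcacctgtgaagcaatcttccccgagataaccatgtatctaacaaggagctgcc
The Ppbp window held 2 TATAAA matches and the Pf4 window 0, and each held 2 GGAA matches and no GATAA or GATAG. S100a8 and S100a9 each held 1 TTNNGNAA match and Ppbp held 0. Pf4 also held 1, in capitals only where it overlaps a marked GGAA match. S100a8 held 4 GGAA matches, of which 1 lies inside its marked TTNNGNAA match and the others are unmarked. Also unmarked were 3 GGAA matches and 1 GATAA match in S100a9. The marks therefore do not separate the 2 pairs by motif. Of 32851 mouse promoter windows of the same length, 80.8% held GGAA, 7.57% TATAAA, 13.3% GATAA, 12.3% GATAG and 22.7% TTNNGNAA. Over all 10 genes, 10 windows held GGAA, 5 TTNNGNAA, 3 GATAA and 2 TATAAA. These matches describe the letters of the windows only.

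The values are log2 expression summaries, so a difference of 1 is a doubling. Levels of different genes cannot be set against each other, because probe sets differ in brightness. The arrays correlated at 0.984 to 0.994 and their medians lay between 6.72 and 6.77 log2. Of 19 hypothalamic marker genes measured, 16 had a mean level past the 40th percentile of all gene means (6.59 log2), used below as the filter on low values. Only Ppbp and Itga2b of the 10 genes passed it, and 8 lay below. The median difference of the 19 hypothalamic genes from control was 0.26, 0.25 and 0.35 log2, with the peptide genes Oxt at 0.79, 0.81 and 0.62, Avp at 0.50, 0.56 and 0.55 and Npy at 0.41, 0.20 and 1.41. Low values did not sit equally on the arrays: genes below the filter had a median difference from control of -0.03 log2 at 0.5M, 0.14 at 1M and 0.07 at 2M, against -0.01, 0.07 and 0.03 over all genes. The 0.5M array also stood apart in anterior pituitary hormone genes, with Gh 4.68 and Prl 3.85 log2 above control, against 0.78 and 0.55 at 1M and 0.72 and 0.56 at 2M. What part these shifts had in the results below was not tested. Values with the low-level shift subtracted are given where they differ most.

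Ppbp was higher in every tumour-bearing array, and no other of the 10 genes reached a difference of 0.5 log2 (1.41-fold) anywhere. It encodes pro-platelet basic protein, the precursor of the alpha-granule chemokine CXCL7, which attracts neutrophils through the receptor CXCR2. Ppbp stood at 7.01 log2 in the control and at 8.04, 8.34 and 8.39 log2. The 3 tumour-bearing arrays lay close together and well above the single control. The differences of 1.03, 1.33 and 1.38 log2 correspond to 2.05-fold, 2.51-fold and 2.61-fold, with a mean of 1.25 ± 0.19 log2 (SD over the 3 tumour-bearing arrays, which holds no error of the control). The tumour-bearing arrays followed the order of cell number, but the step from 1M to 2M was 0.05 log2 and that from 0.5M to 1M 0.29, both small beside the step from control to 0.5M. Over all genes, Ppbp had the 11th, 5th and 8th highest difference and the 7th highest mean difference.

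**Figure D1:**
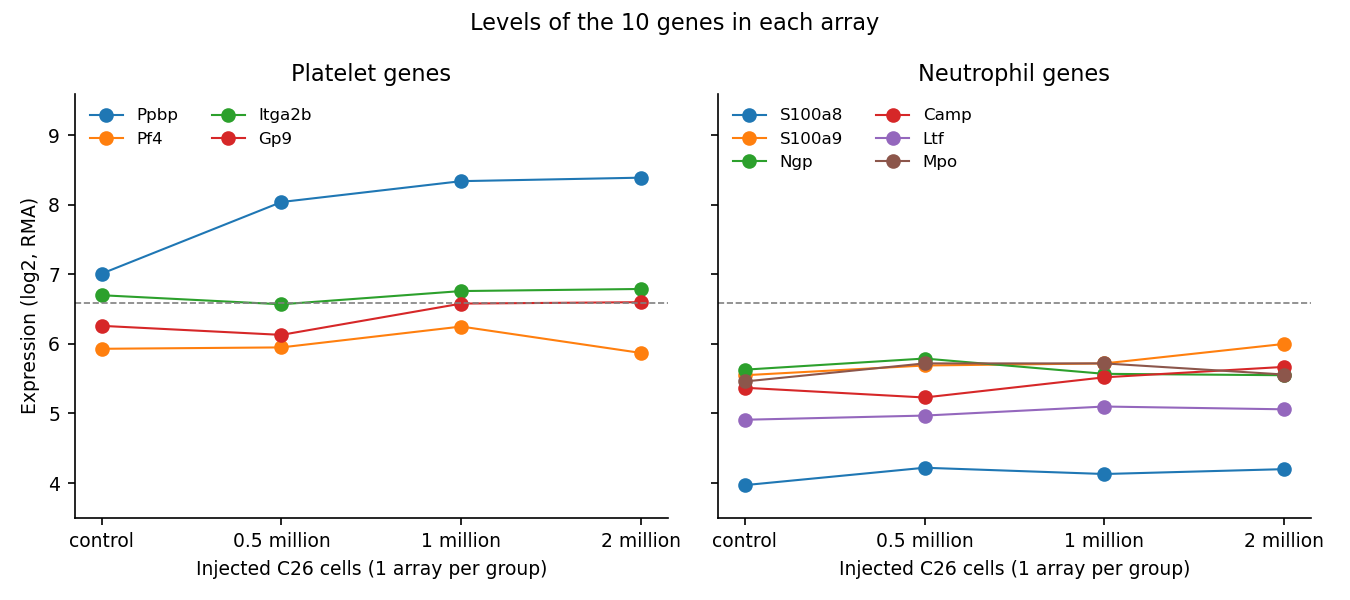
Expression (log2, RMA) of the 4 platelet genes (left) and the 6 neutrophil genes (right) in the control, 0.5M, 1M and 2M arrays, 1 point per gene and array. The dashed line is the filter value of 6.59 log2. Ppbp lies at 7.01 in the control and between 8.04 and 8.39 in the tumour-bearing arrays, while every other gene stays within 0.47 log2 over the 4 arrays.

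The size of that difference can be read against the rest of the array. At least 0.5 log2 above control were 1 of the 10 genes at 0.5M, where 0.692% of all genes were, 1 at 1M (3.21% of all genes) and 1 at 2M (1.78%). At least 0.5 log2 below control were 0 of the 10 in each array, against 0.697%, 1.59% and 1.23% of all genes. The split of all genes into higher and lower depends on the scaling, with 66.8% of the genes past 0.5 log2 at 1M being higher as deposited and 46.5% after cyclic loess. At 0.5M these shares were 49.8% and 59.0%, and 62.1% after subtracting array medians, and at 2M 59.1% and 47.7%. In all 3 arrays together, 55 genes (0.276%) were at least 0.5 log2 above control and Ppbp was among them. At a threshold of 1 log2 in all 3 arrays, 10 genes (0.0502%) remained, again with Ppbp. Over the deposited values and the alternatives that rescale them, the Ppbp difference ranged from 1.03 to 1.06 log2 at 0.5M, 1.19 to 1.33 at 1M and 1.31 to 1.38 at 2M.

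Pf4, the neighbour of Ppbp, did not follow it. It encodes platelet factor 4 (CXCL4), the other abundant chemokine of alpha granules. Pf4 stood at 5.93 log2 in the control and at 5.95, 6.25 and 5.87 log2. The control lay inside the range of the tumour-bearing arrays, and only the 1M array was apart, by 0.32 log2, or 0.21 after cyclic loess and 0.19 with the median difference of low genes subtracted. At 2M the difference was -0.06 log2 as deposited and -0.13 under both. Ppbp exceeded its control by 1.02 log2 more than Pf4 at 0.5M, by 1.01 at 1M and by 1.45 at 2M.

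The CXC chemokine genes around Ppbp were examined after its value was seen, taking the 5 protein-coding genes on either side in RefSeq order. All 10 neighbours were measured and all lay below the filter. Their differences ran from -0.30 to 0.72 log2, and 2 reached 0.5 log2 somewhere. These were Cxcl15, a lung chemokine, at 0.25, 0.72 and 0.30 log2, and Albfm1, a gene of the albumin family, at 0.20, 0.31 and 0.61. At least 0.5 log2 above control were 0.692%, 3.21% and 1.78% of all genes. Among genes below the filter the shares were 0.89%, 5.58% and 2.58%. Cxcl5, directly on the other side of Ppbp, differed by -0.30, -0.29 and 0.13 log2. The neutrophil attractants Cxcl1 and Cxcl2 differed by -0.12, 0.31 and 0.44 log2 and by 0.30, 0.48 and 0.38 log2. None of the neighbours reached the Ppbp difference of the same array.

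**Figure D2:**
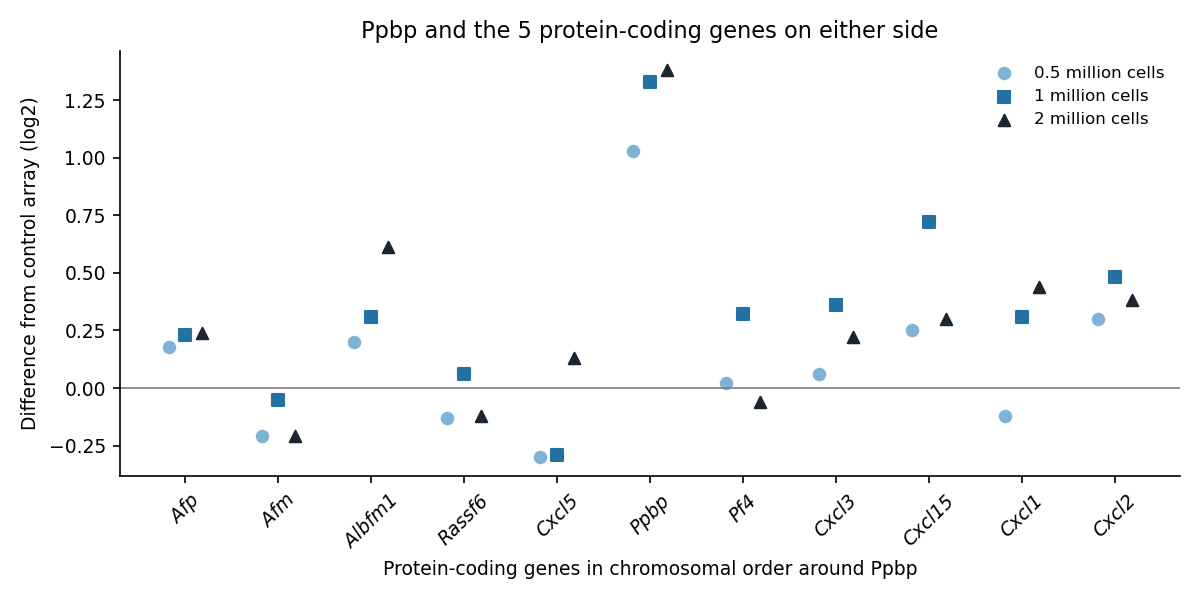
Difference from the control array (log2) of Ppbp and the 5 protein-coding genes on either side, in chromosomal order, with 1 symbol per tumour-bearing array. Ppbp lies at 1.03 to 1.38 log2, and its 10 neighbours lie between -0.30 and 0.72.

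Of the 2 surface receptor genes of platelets, Itga2b lay near control and Gp9 was further from it at 1M and 2M. Itga2b encodes the alpha IIb chain (CD41) of the fibrinogen receptor. It stood at 6.70 log2 in the control and at 6.57, 6.76 and 6.79 log2 in the tumour-bearing arrays, with the control inside the range of the others. Its differences were -0.13, 0.06 and 0.09 log2, and the 1M difference changed sign to -0.03 after cyclic loess. Gp9 encodes glycoprotein IX, part of the receptor complex for von Willebrand factor. It stood at 6.26 log2 in the control and at 6.13, 6.58 and 6.60 log2. The 0.5M array was 0.12 log2 below control, and the 1M and 2M arrays were 0.32 and 0.34 log2 above it, or 0.19 and 0.27 with the median difference of low genes subtracted. As deposited, the Gp9 differences lay at the 23.6th, 87.0th and 93.6th percentile of all genes. The median difference of the 4 platelet genes was -0.05, 0.32 and 0.22 log2, and that of the 3 without Ppbp was -0.12, 0.32 and 0.09. The median of the 4 at 1M and 2M was 0.21 and 0.17 after cyclic loess and 0.19 and 0.15 with the median difference of low genes subtracted.

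Further platelet and megakaryocyte genes lay mostly near control. Of 29 listed, 24 were measured, with median differences of 0.01, 0.09 and 0.02 log2. At 0.5M 0 of the 24 were at least 0.5 log2 above control, at 1M 1 and at 2M 1, and 0 were as far below. The shares of all genes were 0.692%, 3.21% and 1.78% above and 0.697%, 1.59% and 1.23% below. The gene at 1M was Itgb3, the partner chain of Itga2b in the fibrinogen receptor, at -0.08, 0.53 and 0.29 log2. At 2M it was Nfe2, a transcription factor of platelet formation, at -0.08, 0.28 and 0.50 log2. After cyclic loess neither was past 0.5 log2. Outside the naming rule and after their values were seen, genes on both sides of control are named. Above it in all 3 arrays were Gp5, a platelet surface glycoprotein, at 0.12, 0.46 and 0.34 log2, Tubb1, a platelet tubulin, at 0.13, 0.24 and 0.21, and Treml1, an alpha-granule receptor, at 0.13, 0.28 and 0.18. Rab27b, at 0.40, 0.30 and 0.36 log2, had the largest mean difference of the 24. Below control in all 3 were Alox12, the platelet lipoxygenase, at -0.20, -0.02 and -0.07 log2, and Trpc6, at -0.22, -0.16 and -0.06. Gata1, a transcription factor of megakaryocytes and red cell precursors, was at -0.29, 0.08 and -0.11, and Mmrn1, an alpha-granule protein, at -0.04, 0.02 and -0.05. In all 3 arrays 8 of the 24 were above control, where 33.2% of all genes were, and 2 were below, against 22.5%.

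The neutrophil genes lay between -0.14 and 0.45 log2 from control over the 3 tumour-bearing arrays. None of the 6 passed the filter, and 0 reached 0.5 log2. Below the filter, 0.89%, 5.58% and 2.58% of all genes were as far above control and 1.30%, 0.777% and 1.20% as far below. Their median difference was 0.15, 0.16 and 0.19 log2. With the median difference of all genes below the filter subtracted it was 0.18, 0.03 and 0.12. In all 3 arrays 4 of the 6 were above control, S100a8, S100a9, Ltf and Mpo, against 33.0% of all genes below the filter, and 0 were below in all 3, against 15.4%. In each single array 5 of the 6 were above control, against 43.2%, 74.2% and 62.7% of the genes below the filter. Ranked among the differences of all genes, the 6 ran from the 20.9th percentile (Camp) to the 93.9th (Mpo) at 0.5M. The range was 25.7th (Ngp) to 80.5th (Mpo) at 1M and 26.8th (Ngp) to 97.4th (S100a9) at 2M.

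S100a8 and S100a9 encode the paired calcium-binding proteins of calprotectin, among the most abundant cytosolic proteins of neutrophils. S100a8 stood at 3.97 log2 in the control and at 4.22, 4.13 and 4.20 log2. Its 3 tumour-bearing values lay within 0.09 log2 of each other and 0.25, 0.16 and 0.23 above control. S100a9 stood at 5.55 log2 in the control and at 5.69, 5.72 and 6.00 log2. The single mouse of 2M was highest, 0.45 log2 above control, the largest difference among the 10 genes after Ppbp and the closest to the 0.5 log2 threshold from inside. Apart from Ppbp it was the only one of the 10 above the 95th percentile of all genes in any array, which was 0.37 log2 at 2M. At 1M S100a8 and S100a9 were 0.08 and 0.05 log2 above control after cyclic loess, and both 0.03 with the median difference of low genes subtracted.

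Mpo encodes myeloperoxidase, the enzyme of primary granules that makes hypochlorous acid. It stood at 5.46 log2 in the control and at 5.72, 5.72 and 5.56 log2, all above control and highest at the lower cell numbers. Ltf encodes lactoferrin, the iron-binding protein of secondary granules. It stood at 4.91 log2 in the control and at 4.97, 5.10 and 5.06 log2, at most 0.20 above control. Camp encodes the cathelicidin antimicrobial peptide. It stood at 5.37 log2 in the control and at 5.23, 5.52 and 5.67 log2, below control at 0.5M and above it at 1M and 2M. Ngp encodes neutrophilic granule protein, a relative of the cathelicidins. It stood at 5.63 log2 in the control and at 5.79, 5.57 and 5.55 log2, above control at 0.5M and slightly below it at 1M and 2M. After cyclic loess the 1M differences were 0.14 log2 for Mpo, 0.08 for Ltf, 0.04 for Camp and -0.19 for Ngp, against 0.26, 0.20, 0.16 and -0.07 as deposited. At 2M they were 0.02 for Mpo, 0.10 for Ltf, 0.23 for Camp and -0.16 for Ngp, against 0.10, 0.16, 0.30 and -0.09.

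**Figure D3:**
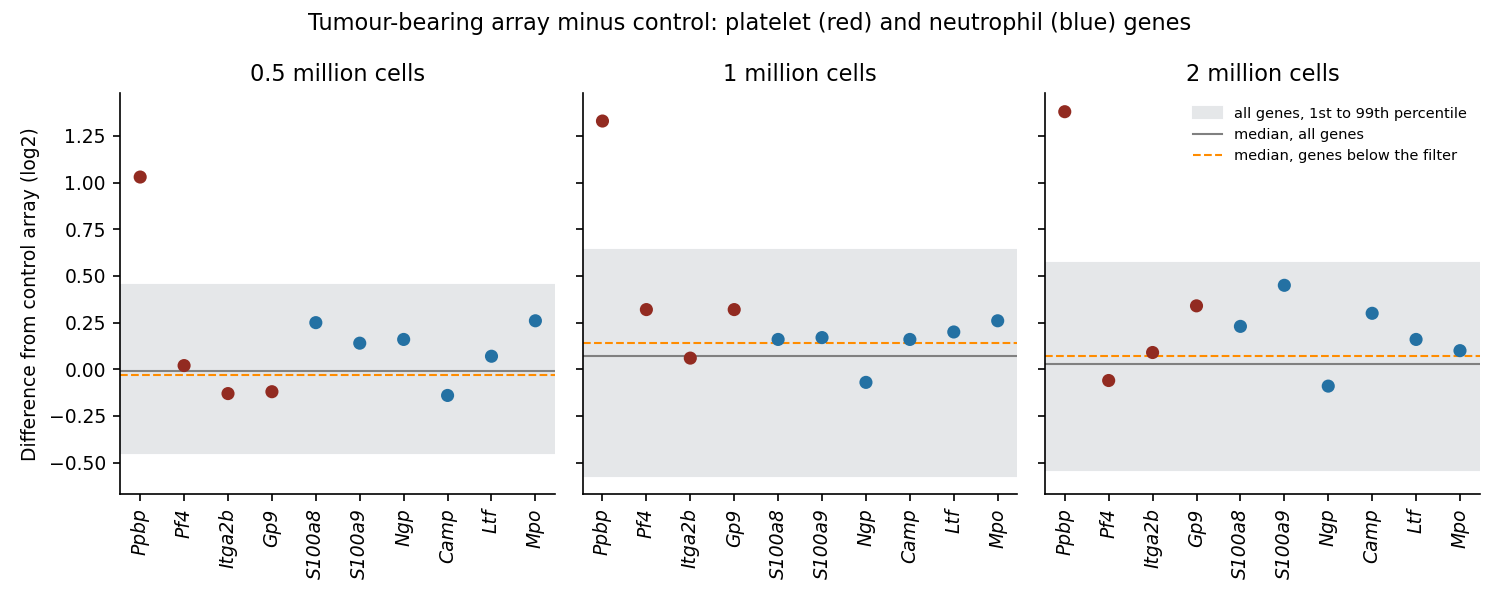
Difference of each tumour-bearing array from the control (log2) for the platelet genes (red) and neutrophil genes (blue), 1 panel per number of injected cells. The grey band spans the 1st to 99th percentile of all 19938 genes, the grey line is their median and the orange dashed line the median of the 7975 genes below the filter. Ppbp alone lies outside the band, in all 3 panels.

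Whether the neutrophil probe sets detected their transcripts is uncertain. A detection call was not used here, so their control levels were set beside 1027 olfactory receptor genes, whose proteins serve the sense of smell in the nose and which were chosen for this purpose after the values were seen. Those had a median of 4.12 log2 and a 90th percentile of 5.39 log2 in the control. S100a8, Camp and Ltf lay at or below that 90th percentile, and S100a9, Ngp and Mpo at most 0.25 log2 above it. The 4 platelet genes lay above it. Since probe sets differ in brightness, this gives only a rough idea of the floor. At least 0.5 log2 above control were 1.27%, 5.16% and 2.24% of the olfactory receptor genes.

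None of the 10 genes differed by 0.5 log2 or more between any 2 tumour-bearing arrays. The shares of all genes were 3.29% for 1M against 0.5M, 1.32% for 2M against 0.5M and 1.67% for 2M against 1M. With shares this low, a count of 0 among 10 genes says little about these genes. The widest difference was that of Gp9, 0.47 log2 higher at 2M than at 0.5M. Camp was 0.44 log2 higher at 2M than at 0.5M, and Pf4 0.39 lower at 2M than at 1M.

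Of 40 further neutrophil genes, 35 were measured, and only Lcn2 was at least 0.5 log2 above control in all 3 arrays. It encodes lipocalin-2, a siderophore-binding protein of secondary granules that endothelium and glia also make, and stood at 6.02 log2 in the control and at 8.53, 8.23 and 8.82 log2. Lcn2 was thus 2.51, 2.21 and 2.80 log2 above control, while Ltf, Ngp and Camp of the same granule class were within 0.30. The median difference of the 35 was -0.04, 0.26 and 0.11 log2, and 0.14 at 1M and 0.06 at 2M after cyclic loess. At least 0.5 log2 above control were 1 gene at 0.5M, 2 at 1M and 2 at 2M, against 0.692%, 3.21% and 1.78% of all genes. Beside Lcn2 these were Cebpe, a factor of granule formation, at 0.52 log2 at 1M and Csf3r, the receptor for granulocyte colony-stimulating factor, at 0.51 at 2M. After cyclic loess Lcn2 alone was as far above. As far below control at 2M were Itgam, an integrin chain of myeloid cells and microglia, at -0.65 log2, and Lyz2, a lysozyme gene of the same cells, at -0.50. At 0.5M and 1M 0 were as far below, and the shares of all genes were 0.697%, 1.59% and 1.23%. Elane, Prtn3 and Ly6g are named outside the naming rule. Elane and Prtn3, serine proteases stored with Mpo, differed by 0.05, 0.26 and -0.04 log2 and by -0.11, 0.37 and 0.14. Ly6g, the surface marker used to sort mouse neutrophils, differed by -0.03, 0.34 and 0.17.

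Among 15 measured receptors and partners of the encoded proteins, 1 was at least 0.5 log2 above control at 1M, the already named Itgb3, 0 were at 0.5M or 2M, and 0 were as far below. Of all genes, 0.692%, 3.21% and 1.78% were as far above control at 0.5M, 1M and 2M, and 0.697%, 1.59% and 1.23% as far below. The counts of these short lists are to be read beside those shares. Cxcr2, Tlr4, Ager and Csf3 are named for their roles, outside the naming rule. Cxcr2, the receptor for the Ppbp product, differed by -0.08, 0.28 and 0.31 log2. The receptors of calprotectin Tlr4 and Ager differed by 0.38, 0.14 and 0.32 log2 and by -0.01, -0.01 and 0.27. Of 12 measured endothelial adhesion and recruitment genes, 0 were at least 0.5 log2 from control in either direction in any array. Of 18 measured factors of granulopoiesis and thrombopoiesis, 0, 1 and 2 were at least 0.5 log2 above control, namely Cebpe at 1M and Csf3r and Nfe2 at 2M, and 0 after cyclic loess. Csf3, which encodes granulocyte colony-stimulating factor, differed by 0.06, 0.15 and 0.23 log2.

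Markers of the other cells that blood or vessels could add were measured beside Ppbp. In the erythroid list, 12 of 21 genes were measured, with median differences of 0.05, 0.36 and 0.16 log2, or 0.07, 0.27 and 0.12 after cyclic loess. In all 3 arrays 7 of the 12 were above control, against 33.2% of all genes, and 0 were below, against 22.5%. Of the 12, 1 was at least 0.5 log2 above control in all 3 arrays, against 0.276% of all genes. This was Alas2, the first enzyme of haem synthesis in red cell precursors, at 7.09 log2 in the control and 8.03, 7.92 and 7.87 log2. The red cell membrane gene Slc4a1, named outside the rule, differed by 0.15, 0.38 and 0.25 log2. The adult globin genes share their probe sets with each other and were not used here. In the endothelial list, 17 of 18 genes were measured, with medians of 0.02, 0.05 and 0.02 log2. Only Vwf was past 0.5 log2, in all 3 arrays, where 0.276% of all genes were as far above control. Vwf encodes von Willebrand factor, which endothelium and megakaryocytes both make, and stood at 7.38 log2 in the control and 8.15, 8.09 and 8.14 log2. Ppbp, among the 4 platelet genes, Alas2 and Vwf were therefore each the 1 gene of their list past 0.5 log2 in all 3 arrays. This trait was not particular to these lists. Lcn2 in the further neutrophil list and Oxt in the hypothalamic list also stood alone in this way. Of the 24 further platelet genes, 0 were as far above control in all 3 arrays. After cyclic loess Alas2 was 0.94, 0.79 and 0.78 log2 and Vwf 0.78, 0.69 and 0.76 log2 above control. The part of blood content in the values of Ppbp, Alas2 and Vwf was not tested.

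Lymphoid and other myeloid markers were less far from control than Ppbp. T and NK cell genes (14 measured) had median differences of -0.05, 0.24 and 0.13 log2, with Cd3d and Cd5 both at 0.58 log2 at 1M and neither past 0.5 log2 after cyclic loess. B cell genes (10 measured) had medians of -0.07, 0.15 and 0.10, mast cell and basophil genes (10 measured) 0.00, 0.14 and 0.12, and monocyte genes (11 measured) -0.06, 0.18 and 0.05. In the monocyte list, S100a4 differed by 0.48, 0.88 and 0.27 log2. Microglia and brain macrophage genes, a list that includes Pf4, had medians of 0.02, 0.02 and -0.06 over 13 genes, with Cx3cr1, the fractalkine receptor of microglia, at -0.26, -0.11 and -0.64 log2. Choroid plexus genes (9 measured) had medians of 0.02, 0.12 and -0.03. Meningeal fibroblast genes (10 measured) had medians of -0.18, -0.16 and -0.08, with the retinoic acid enzyme gene Aldh1a2 at -0.43, -0.63 and -0.62. Dcn and Lum, matrix proteoglycan genes, differed by -0.27, -0.50 and -0.27 log2 and by -0.24, -0.50 and -0.86. Genes named here as past 0.5 log2 are to be read beside the shares of all genes. These were 0.692%, 3.21% and 1.78% above control and 0.697%, 1.59% and 1.23% below. The 1M medians were lower after cyclic loess, at 0.16 for T and NK cell, 0.04 for B cell, 0.08 for mast cell and basophil, 0.07 for monocyte, 0.02 for choroid plexus and 0.04 for the further platelet genes. The B cell median at 2M was 0.03 after cyclic loess, and with averaged probe sets the B cell medians at 1M and 2M were 0.09 and 0.06. Cyclic loess turned 3 small list medians below 0, to -0.02 for the further platelet genes and for the monocyte genes at 2M and to -0.03 for the endothelial genes at 1M.

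**Figure D4:**
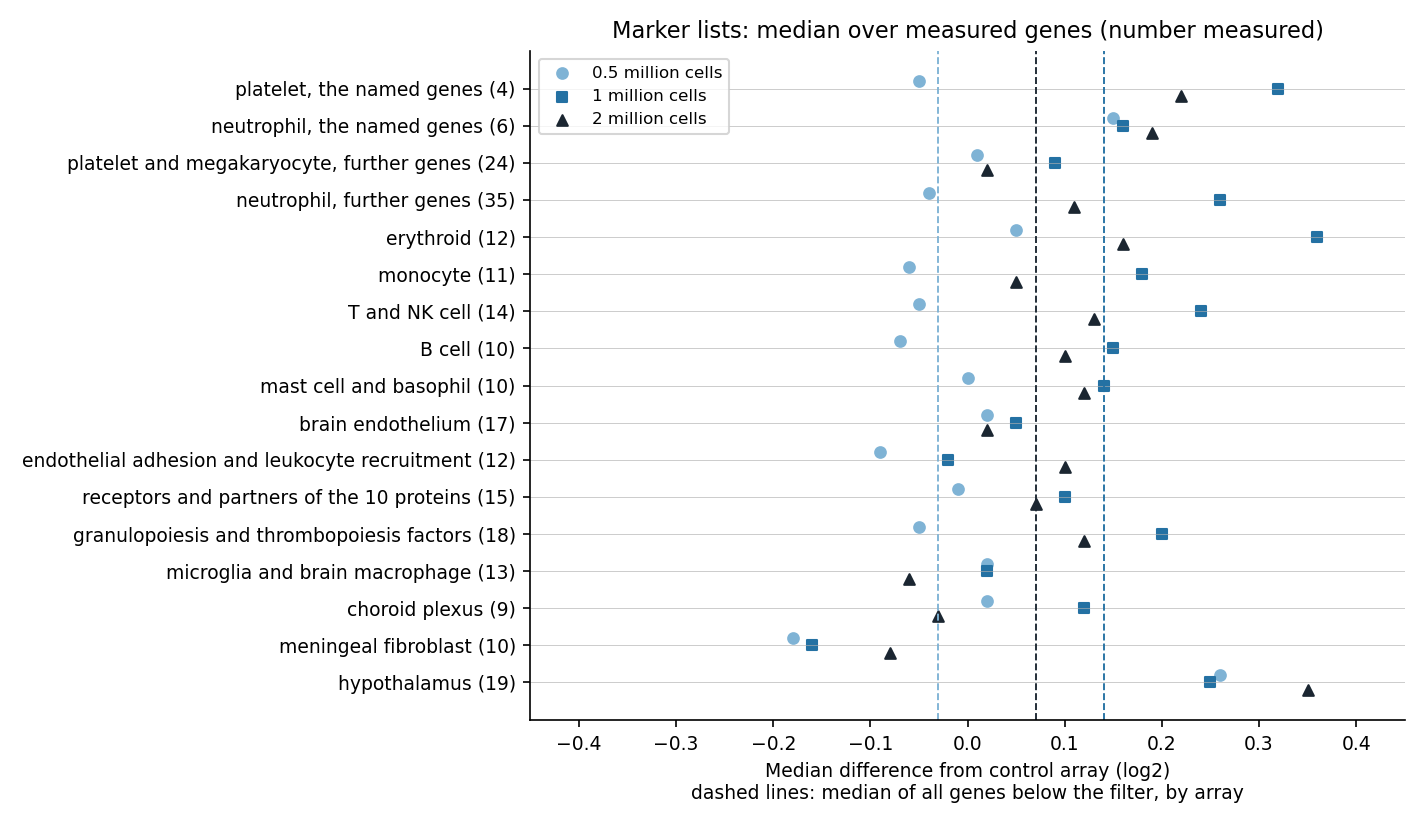
Median difference from control (log2) over the measured genes of each marker list, with 1 symbol per tumour-bearing array and the number of genes in brackets. Dashed lines give the medians of the 7975 genes below the filter, -0.03, 0.14 and 0.07 log2. In every blood cell list the 1M symbol lies to the right of the 0.5M symbol, as the dashed lines do; the 6 neutrophil genes had the opposite order after cyclic loess (0.17 at 0.5M, 0.06 at 1M) and with array medians subtracted (0.18, 0.15).

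The genes whose values over the 4 arrays were most like those of Ppbp were found by Euclidean distance between centred values, among 1969 genes with a range of at least 0.5 log2. They were Plin4, a lipid droplet protein gene (distance 0.16 log2), Osmr, an oncostatin M receptor chain (0.27), and Gm10644, a non-coding RNA gene (0.30). Plin4 stood at 6.69 log2 in the control and at 7.88, 8.15 and 8.30 log2. Osmr stood at 6.69 in the control and at 7.71, 7.77 and 7.79. For S100a8 the search has little meaning, because its own range of 0.25 log2 lay under the minimum asked of the other genes and its control level stood at the 42.6th percentile of the olfactory receptor genes. The nearest were Stk26, a kinase gene (0.18), Icam5, a neuronal adhesion gene (0.21), and 1700018B24Rik (0.21). With 4 arrays, likeness of this kind is a description. The minimum range of 0.5 log2 kept the other 9 genes out of the search.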

How the data were processed

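Total RNA was isolated from hypothalamus with integrity numbers above 8, and 100 ng per array was converted by a whole-transcript kit, per the labels. The authors deposited log2 expression values made by RMA (background subtraction, quantile alignment of arrays, probe summary), per the submitters' processing notes. For its version and software, the arrays aligned together and the genome build, the sources used here give nothing. Quantile alignment removes any change shared by all transcripts. Columns without a sample numbered 0.

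Of 35556 probe sets, 21789 had 1 gene symbol in the platform annotation, 1621 several and 12146 were unlisted. Of the 21789, 21698 matched RefSeq GRCm38.p6 by Entrez number. The probe set with the highest mean stood for each of 999 genes with several, and each of the 10 genes had 1. Differences from control were counted at 0.5 log2 over 19938 genes without a filter, in Python 3.11.15 with pandas 2.3.3 and numpy 2.4.6. Cyclic loess used limma 3.58.1 in R 4.3.3, and plots matplotlib 3.10.9. With 1 array per group, no test was made, and precision is limited by the number of arrays. The counting code was tested on simulated data, which is a check of the code only and not of the counts in these arrays. The genes and marker lists were chosen with earlier results of these data known. The naming rule took the 10 genes, up to 3 genes per list with the largest mean difference among those 0.5 log2 or more from control in any array, and the 3 genes nearest to Ppbp and to S100a8. Genes named outside it are marked as such. Alternatives were averaged probe sets, array medians subtracted, cyclic loess, a threshold of 1 log2, the filter at the 40th percentile, leaving out arrays and, chosen after the data were seen, the median difference of low genes subtracted.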

Additional observations from a re-analysis of the deposited data

How the results depend on the processing

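No paired analysis was possible because each group had 1 array. The counts of genes at least 0.5 log2 above or below control, 1 and 0 in each array, were the same with averaged probe sets, array medians subtracted, cyclic loess, a threshold of 1 log2 and only the genes past the filter. Of the 30 single differences, 1 changed sign, that of Itga2b at 1M, to -0.03 with cyclic loess and -0.07 with the median of low genes subtracted. The neutrophil median moved by more than its SD over the tumour-bearing arrays at 0.5M to 0.18 with array medians subtracted, to 0.17, 0.06 and 0.15 at 0.5M, 1M and 2M with cyclic loess, and to 0.18, 0.03 and 0.12 with the median of low genes subtracted, an alternative chosen after the data were seen. Only Ppbp and Itga2b passed the filter, which put the platelet median at 0.45, 0.69 and 0.74 and left no neutrophil gene. Leaving out the 0.5M, 1M or 2M array moved no gene's mean difference by more than its SD. The 2M array is a single animal, the other arrays are pools, and every difference rests on 1 control array.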
